A study of Mus musculus with 360 samples.

Results

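The genes described here are the apoptosis and p53 response genes on a mouse panel of targeted RNA probes. They were chosen by gene name: every probe was taken whose symbol belongs to the BCL2, caspase, BIRC, BAG, TNF receptor, TNF ligand, TRAF, GADD45, sestrin, MDM, p53, BTG or PHLDA families, or is Bax, Bak1, Bad, Bid, Bbc3, Pmaip1 or Fas. The name rule found 41 of the 2759 genes of the count table, measured by 46 of its 3154 probes. The rule uses no measured value, but it was chosen with earlier results of these data known. By role, 5 genes were p53 and its partners, 7 were p53-inducible stress genes, 7 were pro-apoptotic and 7 anti-apoptotic or BAG genes, 6 were caspases or a caspase partner, 3 were inhibitors of apoptosis, and 6 were TNF receptors, ligands or adaptors. The p53-inducible group holds Btg2, Phlda3, Sesn1, Sesn2 and the GADD45 genes, and regulation of each by p53 was not tested. Bad, Bcl2l11, Birc3, Fas and Gadd45a each had a pair of probes.

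The panel was the TempO-Seq S1500+ panel, in which pairs of detector oligonucleotides are ligated on a target RNA, amplified and counted. All animals were 9-week-old female mice of the B6D2F1/Crl (BDF-1) cross, with no transgene or other allele named in the labels, and their lung, heart, left liver lobe, kidney and ovaries were taken on study day 5. In 1 series, 37 mice were exposed to 1,2-dichlorobenzene (1,2-DCB) at 0, 1, 10, 30, 100 or 250 ppm, and in the other, 35 mice were exposed to 1,4-dichlorobenzene (1,4-DCB) at 0, 1, 10, 50, 150 or 400 ppm. The 2 compounds are isomers: both carry a pair of chlorine atoms on a benzene ring, on neighbouring carbons in 1,2-DCB and opposite each other in 1,4-DCB. Each series had its own 0 ppm animals, and the route of exposure was not given in the sources used here. A library is 1 tissue of 1 animal, and 326 of the 360 libraries, which form 60 groups of 2 to 10 animals, were marked for use by the submitters and analysed.

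The transcription factor p53, encoded by Trp53, is held at a low level by the ubiquitin ligase Mdm2 and accumulates mainly through protein stability after DNA damage or other stress, so its activity is read from its targets rather than from its own RNA. Those targets include arrest and repair genes such as Cdkn1a and Gadd45a, and death genes such as Bax and Bbc3, whose products act at the mitochondrial outer membrane and lead to the activation of caspases. Birc5 encodes survivin, which has a role in chromosome segregation and is made mainly in dividing cells. In liver, death receptors such as Fas provide a further route to apoptosis.

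In the liver at the highest concentrations, Phlda3 and Birc5 were higher in every exposed animal than in every control animal for both compounds. Mdm2, Bax and Gadd45a, which with Phlda3 are known p53 targets, rose in the liver at 250 ppm 1,2-DCB. Bbc3, Trp53 and, outside the name rule, Cdkn1a did not pass the test there, and Fas fell on both probes (-0.27 and -0.46). Over the whole set, 38.1% of the member probes were called in these livers, against 49.8% of all probes. The 250 bases before the start of Phlda3, Mdm2, Bax, Gadd45a and Birc5 are shown. These genes are the members with a RefSeq promoter entry that rose in the liver at 250 ppm. Letters are from RefSeq on GRCm38.p6, in the direction of the gene, and capitals mark matches to the p53 half-site or to TTTGAA.
Phlda3, chr1:135765835-135766084, plus strand: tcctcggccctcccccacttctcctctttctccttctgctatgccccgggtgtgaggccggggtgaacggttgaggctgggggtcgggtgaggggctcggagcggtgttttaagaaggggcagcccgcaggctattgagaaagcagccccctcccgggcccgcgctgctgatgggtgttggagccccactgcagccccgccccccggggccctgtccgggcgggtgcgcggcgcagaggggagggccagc
Mdm2, chr10:117710759-117711008, minus strand: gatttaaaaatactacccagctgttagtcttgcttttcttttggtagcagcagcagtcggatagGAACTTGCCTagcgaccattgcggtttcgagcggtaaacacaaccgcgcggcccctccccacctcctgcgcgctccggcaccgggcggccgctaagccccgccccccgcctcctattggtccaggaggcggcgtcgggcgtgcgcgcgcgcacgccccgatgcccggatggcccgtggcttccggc
Bax, chr7:45466899-45467148, minus strand: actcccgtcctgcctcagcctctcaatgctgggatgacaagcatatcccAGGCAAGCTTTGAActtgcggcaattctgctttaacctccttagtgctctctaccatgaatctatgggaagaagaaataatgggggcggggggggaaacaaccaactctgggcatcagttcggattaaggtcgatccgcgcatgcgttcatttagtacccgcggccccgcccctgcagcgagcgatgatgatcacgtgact
Gadd45a, chr6:67037408-67037657, minus strand: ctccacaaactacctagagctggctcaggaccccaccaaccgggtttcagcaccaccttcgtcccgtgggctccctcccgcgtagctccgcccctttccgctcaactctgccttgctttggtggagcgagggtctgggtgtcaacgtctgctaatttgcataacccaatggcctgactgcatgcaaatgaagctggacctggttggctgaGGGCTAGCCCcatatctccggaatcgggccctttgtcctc
Birc5, chr11:117848987-117849236, plus strand: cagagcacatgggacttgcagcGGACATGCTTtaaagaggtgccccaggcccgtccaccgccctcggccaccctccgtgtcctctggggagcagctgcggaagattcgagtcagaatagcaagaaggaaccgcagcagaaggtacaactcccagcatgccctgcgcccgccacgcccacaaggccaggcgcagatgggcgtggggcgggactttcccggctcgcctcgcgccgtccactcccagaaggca
The search covered both strands of a window of 300 bases, 250 before and 50 after the start, and took the p53 half-site, TTTGAA and TTTNGCGC, the last of these a form of the E2F motif. The half-site was found at base -40 from the start in Gadd45a, -186 in Mdm2, -201 in Bax and -228 in Birc5, and was not found in the Phlda3 window. In Bax it overlaps a TTTGAA match that begins at -193. The half-site is short and occurred in 8.36% of 32851 mouse promoters, against 7 of the 47 promoter entries of 39 member genes. TTTGAA was in 17.9% of all promoters and in 8 of the 47, and TTTNGCGC in 1.38% and in 2. A match describes letters only.

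In unexposed animals the levels of these genes depended strongly on the tissue. Levels are given as CPM, counts scaled to the total of their library with TMM factors set within each tissue. They were compared between tissues for 1 gene at a time, without a scale shared by the tissues. A list of red cell genes averaged 392513 CPM in 1,2-DCB control lungs and 11652 in control livers, and its part in the order of tissues was not tested. Of the members, 20 probes had their highest mean in ovary, 14 in lung, 6 in kidney, 4 in heart and 1 in liver, and 26 had their lowest mean in liver. Birc5 averaged 5.90 ± 2.89 CPM in liver, 3.02 ± 1.44 in heart and 16.4 ± 2.98 in lung. It averaged 21.4 ± 23.5 CPM in kidney and 265 ± 48.7 in ovary. Every control kidney, at 7.66 to 90.5 CPM of Birc5, was above every control heart, at 1.13 to 7.49. The kidney range overlapped those of lung and liver, and its highest value was that of 1,4-DCB control animal 2. Phlda3, a PH-domain protein that restrains AKT signalling, averaged 1.1 ± 0.391 CPM (SD) in 16 livers against 17.6 ± 6.26 in heart, 19.7 ± 11.2 in kidney, 63.7 ± 10.8 in lung and 69.3 ± 17.1 in ovary. Liver thus had the lowest mean of Phlda3 and next to the lowest of Birc5.
Trp53 itself ranged from 40.2 ± 4.17 CPM in heart and 41.8 ± 3.52 in liver to 340 ± 30.9 in ovary, with 87.3 ± 16 in kidney and 101 ± 10.7 in lung. Heart and liver, and kidney and lung, lay within their spread of each other. Bag3, a chaperone partner found in striated muscle, was highest in heart at 2227 CPM and lowest in liver at 226. Bid, the caspase-8 substrate that links death receptors to mitochondria, ran from 2.29 CPM in heart to 212 in kidney. Fas was highest in lung at 105 CPM, and Trp53inp2, an autophagy regulator, was highest in heart at 114.1. Casp8ap2 had a count in 4 libraries and was never tested.

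The total count per library was 4.34 to 13.1 M for ovary, 7.82 to 29.4 M for heart, 8.02 to 23.5 M for kidney, 12.4 to 46.5 M for lung and 14.1 to 40.3 M for liver, of which the median share on the members was 0.0918% in liver and 0.460% in ovary. After a filter on low counts, 42 member probes could be tested in liver and in kidney, 44 in lung, 41 in ovary and 39 in heart, and 39 in every tissue. Tissue identity held where the panel allowed a check: hepatocyte genes summed to 224890 to 316345 CPM in control livers and to 9018 to 18276 in control kidneys, and cardiac muscle genes to 216812 to 328103 in control hearts. The panel held no probe of the lung epithelium list and 2 of the kidney list. All changes below were tested with the quasi-likelihood test of edgeR against the 0 ppm animals of the same compound, two-sided, with Benjamini-Hochberg adjustment over all probes of the tissue, and a probe was called at an adjusted p under 0.05. Contrasts of 1 compound share their control animals. In bulk tissue, fewer cells of a type and less RNA per cell cannot be told apart.

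**Figure D1:**
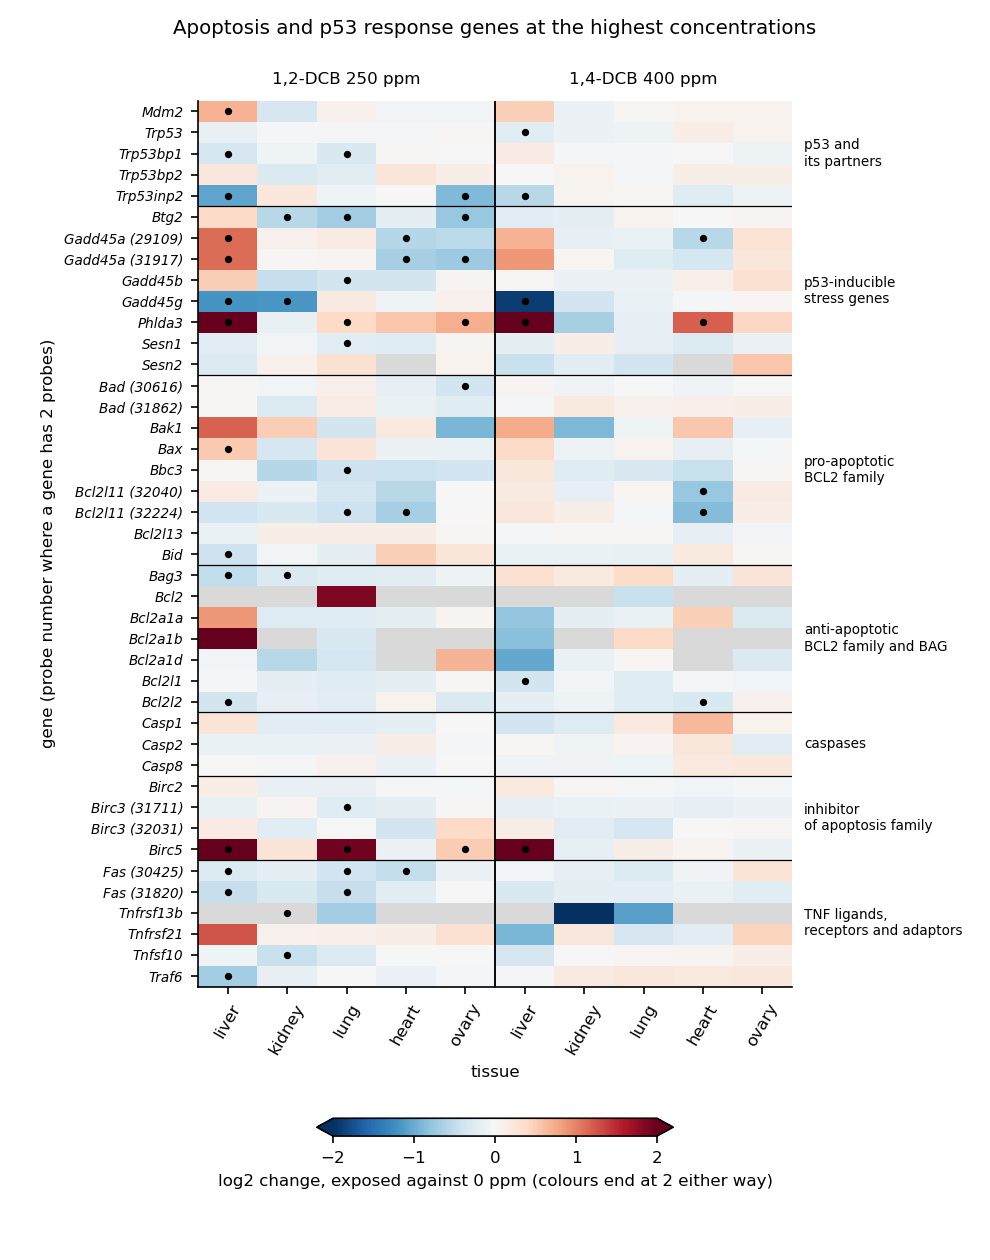
Log2 change of the member probes (rows, grouped by role) at the highest concentration of each compound in each tissue (columns), against the 0 ppm animals of the same compound. Black dots mark called probes, grey marks probes that were not tested or had a group all at 0, and colours end at 2 in either direction. Among called probes, Birc5 and Phlda3 are above 2 in both liver columns.

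In the liver of mice exposed to 250 ppm 1,2-DCB, 16 of 42 member probes were called, 7 higher and 9 lower. That is 38.1% of the members, against 49.8% of all probes tested in that contrast, 25.1% higher and 24.6% lower, so the share of members was below the background. The median log2 change of the members was 0.02 and that of all probes -0.02. DESeq2 called 17 members, and 20 had an unadjusted p under 0.05. Among the called members, Birc5 and Phlda3 changed most.

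In the group of p53-inducible stress genes, 3 of 8 probes rose and 1 fell in the liver at 250 ppm 1,2-DCB. Phlda3 had 0.394, 1.27 and 1.60 CPM as the lowest, median and highest of 9 control livers, and 8.91, 12.9 and 16.3 CPM in 6 exposed livers. Every exposed liver was above every control, with a log2 change of 3.38 ± 0.33 (SE) and an adjusted p of 5.32e-13. Gadd45a, a stress sensor that binds PCNA and p21, rose on both probes: the first had 4.13 to 20.7 CPM in controls and 19.5 to 34.4 in exposed animals (1.11 ± 0.31, adjusted p = 0.00219), and the second 0.464 to 3.04 against 2.89 to 5.52 CPM (1.11 ± 0.38, adjusted p = 0.0116). The ranges overlapped slightly on both.
Gadd45g, the family member known for growth arrest and p38 signalling, fell. Its control livers held 8.83, 16.1 and 41.1 CPM, and the exposed livers 4.20, 5.57 and 20.2 CPM, a log2 change of -1.18 ± 0.42 (adjusted p = 0.0154). The exposed value of 20.2 belonged to animal 506R and lay above the control median, while the other 5 were below every control. Without control animal 6, which had 41.1 CPM, the change was -0.91 (adjusted p = 0.0603). Gadd45b changed by 0.49 ± 0.31 (adjusted p = 0.190), Btg2, an antiproliferative gene, by 0.38 ± 0.20 (adjusted p = 0.107), and Sesn1, a stress-induced inhibitor of mTORC1, by -0.23 ± 0.10 (adjusted p = 0.0528).

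Of p53 and its partners in the same livers, 1 of 5 rose and 2 fell. Mdm2 had 2.78, 5.47 and 7.48 CPM in controls and 3.9, 8.50 and 12.1 in exposed livers (0.69 ± 0.22, adjusted p = 0.00607). In 5 of 6 exposed animals it was above the control median. Trp53inp2 fell from 27.6, 41.8 and 67.3 CPM to 18.8, 21.3 and 25.5 CPM, with no overlap (-1.05 ± 0.18, adjusted p = 2.08e-06). Trp53bp1, the DNA damage mediator 53BP1, fell by 0.33 ± 0.12 (adjusted p = 0.0214, and 0.0738 without animal 506R), and Trp53 itself had medians of 43.2 and 36.3 CPM (-0.15 ± 0.07, adjusted p = 0.0766). Trp53bp2 changed by 0.23 ± 0.17 (adjusted p = 0.268).

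Among the pro-apoptotic BCL2 genes, 1 of 9 probes rose and 1 fell. Bax, which forms pores in the mitochondrial outer membrane, had 4.91, 6.86 and 11.4 CPM in controls and 7.76, 11.2 and 13.5 in exposed livers (0.53 ± 0.19, adjusted p = 0.0159), with overlapping ranges. Without animal 503 its change was 0.46 (adjusted p = 0.0519). Bid fell from a median of 25.3 to 19.1 CPM (-0.41 ± 0.12, adjusted p = 0.00467). Its locus overlaps that of Bcl2l13 at the ends of the genes, on opposite strands of chromosome 6. Bbc3, encoding the p53-inducible death protein PUMA, changed by 0.03 ± 0.26 (adjusted p = 0.929), and Bak1, near the detection limit with medians of 0.141 and 0.404 CPM, by 1.18 ± 0.75 (adjusted p = 0.193).
Of the anti-apoptotic and BAG genes, 2 of 6 probes fell and none was called higher. Bcl2l2, encoding BCL-W, fell by 0.36 ± 0.10 (adjusted p = 0.00211), and Bag3 from 205 to 295 CPM in controls to 148.8 to 206 (-0.49 ± 0.16, adjusted p = 0.0110). Bcl2l1, encoding BCL-XL, changed by -0.04 ± 0.08 (adjusted p = 0.724). The Bcl2a1a, Bcl2a1b and Bcl2a1d probes target nearly identical copies, so their values are uncertain as to the copy.

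The inhibitor of apoptosis family had 1 of 4 probes called. Birc5 had 3.23, 4.75 and 11 CPM in 9 control livers and 92.8, 200 and 250 CPM in 6 exposed livers, a log2 change of 5.15 ± 0.42 (adjusted p = 8.07e-16). Every exposed liver was above every control. Birc2, a ubiquitin ligase of TNF receptor complexes, changed by 0.14, and the Birc3 probes by -0.15 and 0.16, none of them called. The proliferation list, which does not contain Birc5, had 21 of 22 probes higher in the same livers with a median log2 change of 4.91, and its summed level went from 111.6 to 192.7 CPM in controls to 800.1 to 1556. The part of cell division in the level of Birc5 was not tested.
The apical caspase Casp8 changed by -0.01 ± 0.08 (adjusted p = 0.904), and Casp1 by 0.26, neither called. These are RNA levels and do not measure cleavage of the enzymes.

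Of the TNF receptors, ligands and adaptors, 3 of 5 tested probes fell in these livers. Fas fell on both of its probes, from 27.2, 34.3 and 42.1 to 15.5, 25.3 and 29.9 CPM (-0.46 ± 0.13, adjusted p = 0.00302) and from a median of 34.4 to 30.9 CPM (-0.27 ± 0.10, adjusted p = 0.0165). The second probe was not called without animal 507 (adjusted p = 0.0777) or 508 (adjusted p = 0.125). Traf6, an adaptor and ubiquitin ligase of NF-kB signalling, fell by 0.70 ± 0.20 from a median of 4.33 to 2.60 CPM (adjusted p = 0.00277). Tnfsf10, the ligand TRAIL, changed by -0.08 ± 0.20 (adjusted p = 0.787), and Tnfrsf21, the receptor DR6, by 1.26 ± 0.56 from a median of 0.282 to 0.647 CPM (adjusted p = 0.0570). In the same livers, 8 of 12 hepatocyte probes fell and the summed hepatocyte level went from 224890 to 316345 CPM to 146394 to 208848, and 5 of 5 red cell probes fell. Their part in these results was not tested.

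**Figure D2:**
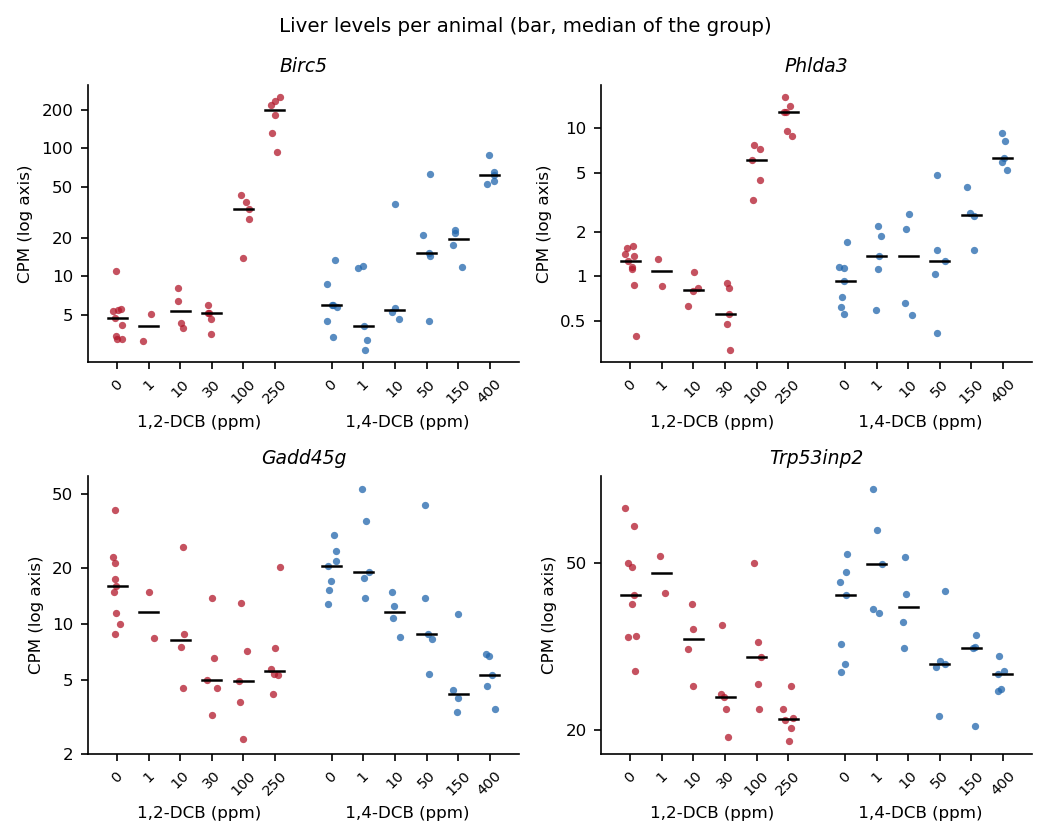
CPM of Birc5, Phlda3, Gadd45g and Trp53inp2 in each liver (points, log axis) by concentration of 1,2-DCB and 1,4-DCB, with a bar at the median of each group. At the highest concentrations all points of Birc5 and Phlda3 lie above the controls, and for Gadd45g at 250 ppm animal 506R stands at 20.2 CPM, above the others.

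At lower concentrations of 1,2-DCB fewer members were called in liver. At 1 ppm 0 of 42 member probes were called by edgeR, as for all probes (0.0%), with 1 below an unadjusted p of 0.05 and 0 by DESeq2. At 10 ppm 0 were called against 5.34% of all probes, with 5 below an unadjusted p of 0.05 and 1 by DESeq2. At 30 ppm 2 members fell (4.76%, against 11.7% of all probes). Trp53inp2 went from 27.6, 41.8 and 67.3 CPM to 19.3 to 35.5 with a median of 23.9 (-0.83 ± 0.19, adjusted p = 0.00203), and Gadd45g from a median of 16.1 to 4.98 CPM (-1.46 ± 0.46, adjusted p = 0.0255). The call of Gadd45g at 30 ppm was lost without control animal 6 (-1.21, adjusted p = 0.0658) and without animal 301, 303 or 304. Phlda3 at 30 ppm was 0.477, 0.317, 0.836, 0.554 and 0.902 CPM in the 5 livers, near or below the controls (-0.95 ± 0.41, adjusted p = 0.127), and Birc5 changed by -0.08 ± 0.45 (adjusted p = 0.938).
At 100 ppm 5 members were called (11.9%, against 18.8% of all probes), 2 higher and 3 lower. Phlda3 was 7.75, 4.5, 3.28, 7.21 and 6.12 CPM in the 5 livers (2.26 ± 0.34, adjusted p = 1.07e-06), and Birc5 was 37.9, 43.4, 13.9, 28.2 and 33.8 CPM (2.60 ± 0.41, adjusted p = 2.6e-06). All 5 livers were above all controls for both genes. Gadd45g fell by 1.55 ± 0.46 (adjusted p = 0.0113, and 0.0502 without animal 403), Bag3 by 0.60 ± 0.18 (adjusted p = 0.00974) and Trp53 by 0.25 ± 0.08 (adjusted p = 0.0121). Mdm2 at 100 ppm had a median of 7.79 CPM against 5.47 (0.58 ± 0.23, adjusted p = 0.0678), and Bax changed by 0.02 ± 0.20 (adjusted p = 0.955).

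With 1,4-DCB the liver at 400 ppm had 7 of 42 member probes called, 3 higher and 4 lower, or 16.7%, against 31.6% of all probes, 18% higher and 13.6% lower. DESeq2 called 7 and 10 had an unadjusted p under 0.05. The median log2 change was -0.02 for the members and -0.03 for all probes. Phlda3 was 5.97, 8.26, 9.26, 6.28 and 5.26 CPM in the 5 livers, against 0.555, 0.931 and 1.70 as lowest, median and highest of 7 controls (2.82 ± 0.36, adjusted p = 7e-09). Birc5 was 55.0, 65.5, 62.1, 88.1 and 52.2 CPM against 3.40, 6.01 and 13.5 (3.22 ± 0.44, adjusted p = 2.4e-08). Both were above all controls in all 5 animals.
Gadd45g was 3.5, 4.64, 5.34, 6.71 and 6.93 CPM against 12.8 to 30.1, below all controls (-1.90 ± 0.47, adjusted p = 0.00118). Trp53inp2 fell by 0.55 ± 0.20 (adjusted p = 0.0270), Bcl2l1 by 0.36 ± 0.09 (adjusted p = 0.00180) and Trp53 by 0.23 ± 0.08 (adjusted p = 0.0207). Mdm2 (0.48 ± 0.24, adjusted p = 0.124), Bax (0.39 ± 0.21, adjusted p = 0.163) and Gadd45a (0.70 and 0.87, adjusted p = 0.119 and 0.109) did not pass the test. The calls of Trp53inp2 and Trp53 were lost without control animal 4 (adjusted p = 0.0728 and 0.0705). In these livers 20 proliferation probes rose, with a median change of 3.24.

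At 150 ppm 1,4-DCB 3 members were called in liver (7.14%, against 5.96% of all probes). Phlda3 was 2.56, 1.51, 4.00 and 2.67 CPM (1.45 ± 0.38, adjusted p = 0.0117), Birc5 21.7, 11.8, 23 and 17.7 CPM (1.43 ± 0.45, adjusted p = 0.0447), and Gadd45g 3.36, 4.01, 4.43 and 11.3 CPM (-1.81 ± 0.51, adjusted p = 0.0234). The Gadd45g values lay below all controls, and those of Phlda3 and Birc5 overlapped them by 1 animal each. Without animal 404, Gadd45g, Birc5 and Phlda3 had changes of -1.69, 1.31 and 1.19 (adjusted p = 0.0837, 0.126 and 0.0927), and Birc5 was also lost without animal 401 or 405 and without any of control animals 3, 4, 5, 7 and 10. At 50 ppm 1 member was called (2.38%, against 0.769% of all probes): Birc5, at 15.2, 21.2, 62.9, 4.51 and 14.5 CPM (1.77 ± 0.43, adjusted p = 0.0285). The highest value was that of animal 303, and without it the change was 0.97 (adjusted p = 0.966). At 1 and at 10 ppm 0 members were called by edgeR, as for all probes (0.0% at each), with 2 at an unadjusted p under 0.05 at each concentration and 0 by DESeq2.

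In the lung at 250 ppm 1,2-DCB, 13 of 44 member probes were called, 4 higher and 9 lower (29.5%, against 32.6% of all probes, 17.6% higher and 15% lower). The median log2 change of the members was -0.17 and that of all probes -0.02. Birc5 had 11, 17 and 21.2 CPM in 10 control lungs and 22.1, 38.3 and 142.9 in 6 exposed lungs, all above the controls (1.93 ± 0.23, adjusted p = 2.39e-10). The spread between exposed lungs was wide, with 142.9 CPM in animal 506R and 95.6 in 501 against 22.1 to 39.5 in the others. The proliferation list had 19 of 22 probes higher in the same lungs (median 1.52, summed level 289.5 to 422.9 CPM in controls and 453.1 to 1474 exposed, the highest in the same animals 506R and 501). Phlda3 rose from a median of 66.5 to 81.4 CPM (0.40 ± 0.12, adjusted p = 0.00565), with overlapping ranges.
Among the falling genes, Trp53bp1 went from a median of 63.9 to 50.9 CPM at 250 ppm (-0.31 ± 0.06, adjusted p = 2.97e-05) and Fas from 94.4 to 71.4 CPM on 1 probe (-0.46 ± 0.11, adjusted p = 4.63e-04) and by 0.39 ± 0.12 on the other (adjusted p = 0.0103). In the group of p53-inducible stress genes, Sesn1 fell by 0.23 ± 0.06 (adjusted p = 0.00269), Gadd45b by 0.37 ± 0.10 (adjusted p = 0.00326) and Btg2 by 0.69 ± 0.21 (adjusted p = 0.00717). The death genes Bbc3 and Bcl2l11, encoding PUMA and BIM, fell by 0.42 ± 0.15 (adjusted p = 0.0268) and 0.42 ± 0.14 (adjusted p = 0.0185), and Birc3 by 0.24 ± 0.08 (adjusted p = 0.0189). The other probes of Bcl2l11 and Birc3 were not called (adjusted p = 0.0843 and 0.985). Without animal 506R, Bbc3 and Bcl2l11 changed by -0.29 (adjusted p = 0.143) and -0.33 (adjusted p = 0.0948), without animal 501 by -0.32 and -0.36, and neither was called. Without animal 508, Bbc3 and Birc3 were not called (adjusted p = 0.0670 and 0.0788). Mdm2 (0.08 ± 0.12, adjusted p = 0.664) and Bax (0.26 ± 0.11, adjusted p = 0.0655) did not pass. In these lungs 6 of 6 red cell probes fell, and the mean of their summed level went from 392513 to 85657 CPM. At 250 ppm this mean also went from 41629 to 8417 CPM in kidney, 120469 to 23760 in heart and 9142 to 1500 in ovary. The part of red cells in these results was not tested.

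At 100 ppm 1,2-DCB the lung had 4 members called (9.09%, against 6.53% of all probes). Trp53bp1 (-0.27 ± 0.06, adjusted p = 0.00378) and, on 1 probe each, Birc3 (-0.36 ± 0.09, adjusted p = 0.00444) and Fas (-0.44 ± 0.13, adjusted p = 0.0314) fell. Without animal 404, Fas changed by -0.36 (adjusted p = 0.167), and 2 members were called. The call of Fas was also lost without animal 403 or 405 or control animal 3, 4 or 5. At 1, 10 and 30 ppm 0 members were called by edgeR, against 0.0%, 1.89% and 4.57% of all probes, with 4, 4 and 5 below an unadjusted p of 0.05 and 1, 0 and 1 by DESeq2. With 1,4-DCB at 1, 10, 50, 150 and 400 ppm 0 members were called by edgeR in lung, against 0.0%, 0.0726%, 1.2%, 0.472% and 2.61% of all probes, with 0, 1, 3, 6 and 6 below an unadjusted p of 0.05 and 0 by DESeq2. At 400 ppm Birc5 had a median of 16.7 CPM against 17.1 in controls (0.11 ± 0.25, adjusted p = 0.895) and Phlda3 56.8 against 64.5 (-0.16 ± 0.13, adjusted p = 0.615).

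In the kidney at 250 ppm 1,2-DCB, 5 of 42 member probes were called, all lower (11.9%, against 11.7% of all probes), with a median change of -0.15 against -0.02 over all probes. Gadd45g had 91.4, 123.1 and 281 CPM as lowest, median and highest of 5 controls and 51, 68.1 and 107.9 in 6 exposed kidneys (-1.16 ± 0.30, adjusted p = 0.00607). Btg2 went from a median of 53.5 to 38.4 CPM (-0.56 ± 0.15, adjusted p = 0.0120), and Tnfsf10 from 46.6 to 59.2 CPM to 34 to 44.2, without overlap (-0.45 ± 0.13, adjusted p = 0.0168). Bag3 fell by 0.29 ± 0.10 (adjusted p = 0.0353). Tnfrsf13b, a member of the TNF receptor family found on B cells, was at 0 to 0.687 CPM in controls. It was at 0 in all 6 exposed kidneys (adjusted p = 0.0480), and no fold is given. Without control animal 2 or 3, or animal 507, 3 members were called: without animal 3 Gadd45g changed by -0.87 (adjusted p = 0.0573), without animal 2 Btg2 by -0.42 (adjusted p = 0.0964), and without animal 507 Bag3 by -0.28 (adjusted p = 0.0695). Without control animal 8 Tnfsf10 changed by -0.39 (adjusted p = 0.0664).
Birc5 and Phlda3 did not pass in kidney at 250 ppm, with changes of 0.25 ± 0.43 (adjusted p = 0.806) and -0.15 ± 0.34 (adjusted p = 0.869). The hepatocyte list was higher in exposed than in control kidneys, with 4 of 11 probes called and a summed level of 19107 to 25805 against 12840 to 17340 CPM. The labels mark 16 kidney libraries, not used here, for potential tissue contamination, and the list's part in these results was not tested. At 1, 10, 30 and 100 ppm 1,2-DCB 0 members were called by edgeR, against 0.0%, 0.44%, 0.696% and 0.0366% of all probes, with 0, 1, 1 and 4 below an unadjusted p of 0.05 and 0 by DESeq2. With 1,4-DCB at 1, 10, 50, 150 and 400 ppm 0 members were called by edgeR, against 0.476%, 0.0%, 0.0%, 0.0% and 1.03% of all probes, with 4, 2, 3, 2 and 2 below an unadjusted p of 0.05 and 0 by DESeq2.

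In the heart at 250 ppm 1,2-DCB, 4 of 39 member probes were called, all lower (10.3%, against 8.88% of all probes). Gadd45a fell on both probes, from 65.4, 72 and 84.2 to 27.2, 50.3 and 67.3 CPM (-0.57 ± 0.15, adjusted p = 0.00641) and from a median of 8.67 to 5.32 CPM (-0.67 ± 0.18, adjusted p = 0.00875). On 1 probe Fas fell from 26.2, 32.4 and 36.8 to 18.3, 23.8 and 26.5 CPM (-0.47 ± 0.10, adjusted p = 4.3e-04). The other Fas probe was not called (-0.21, adjusted p = 0.235). Of the Bcl2l11 probes, 1 fell by 0.66 ± 0.20 (adjusted p = 0.0294), a call lost without any of control animals 1, 2 and 3 or of animals 503, 505 and 507. Gadd45a thus fell in heart where it rose in liver, and the difference between the tissues is tested below. At 100 ppm 1 member was called (2.56%, against 0.733% of all probes), Fas on 1 of its probes. It was at 21.3 to 25.9 CPM and below all controls (-0.43 ± 0.11, adjusted p = 0.0272), a call lost without any of animals 401 to 404 and without control animal 2 or 3. At 1, 10 and 30 ppm 0 members were called by edgeR, against 0.0%, 0.978% and 2.04% of all probes, with 4, 2 and 9 below an unadjusted p of 0.05 and 0, 0 and 1 by DESeq2.

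With 1,4-DCB the heart had 9 of 39 member probes called at 150 ppm, 3 higher and 6 lower (23.1%, against 27.2% of all probes), and 5 at 400 ppm, 1 higher and 4 lower (12.8%, against 13% of all probes). At 1, 10 and 50 ppm 0 members were called by edgeR, as for all probes (0.0% at each), with 3, 3 and 6 below an unadjusted p of 0.05 and 0 by DESeq2. Phlda3 was 30.5, 25.4, 44.5, 15.2 and 70.7 CPM in animals 401 to 405 at 150 ppm, and 92.8, 21.8, 34.9, 13.8 and 20.5 CPM in animals 501 to 505 at 400 ppm, against 13.6, 16.1 and 19.4 in 10 controls. The changes were 1.21 ± 0.32 (adjusted p = 0.00497) and 1.19 ± 0.32 (adjusted p = 0.0104), and 4 of 5 animals at each concentration were above every 1,4-DCB control.
At 150 ppm Bcl2l13, a mitochondrial BCL2 relative, fell from a median of 97.8 to 73.3 CPM without overlap (-0.46 ± 0.08, adjusted p = 5.76e-04). Gadd45a fell on 1 probe by 0.70 ± 0.16 (adjusted p = 0.00163), Sesn1 by 0.49 ± 0.11 (adjusted p = 0.00164) and Bag3 by 0.47 ± 0.13 (adjusted p = 0.00583). Trp53inp2 and 1 Bcl2l11 probe fell by 0.34 ± 0.12 (adjusted p = 0.0273) and 0.69 ± 0.24 (adjusted p = 0.0257), and Btg2 rose by 0.38 ± 0.13 (adjusted p = 0.0258). At 400 ppm Bcl2l11 fell on both probes (-0.86 ± 0.22, adjusted p = 0.00825, and -0.76 ± 0.24, adjusted p = 0.0275), and Bcl2l2 by 0.30 ± 0.09 (adjusted p = 0.0160). Gadd45a fell on 1 probe by 0.56 ± 0.16 (adjusted p = 0.0157), and its other probe was not called (-0.35, adjusted p = 0.2245).

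These counts depended on single hearts. Animal 405 at 150 ppm had a summed cardiac muscle level of 53874 CPM, against 256430 to 306988 in controls and 182380 to 233845 in the other 4 animals. Its adipocyte sum was 2550 CPM (controls 243 to 304) and its smooth muscle sum 820 (controls 45.9 to 98.4). At 400 ppm animal 501 had 155422, 1151 and 591.7 CPM for the same 3 lists, and animal 503 had 166401, 406.2 and 432.1. The adipocyte and smooth muscle lists were chosen after the values were seen. Animals 405 and 501, with the highest Phlda3, had the highest adipocyte and smooth muscle sums. Animals 402, 502 and 505 also had Phlda3 above every control, but their adipocyte sums, 204.8, 220.8 and 221.8 CPM, were below every control. The cardiac and smooth muscle sums of animal 502 lay within the controls, and those of animals 402 and 505 outside them. The part of these lists in the result was not tested.
Without animal 405, 2 members were called at 150 ppm, and Phlda3 changed by 0.84 (adjusted p = 0.131) and Bag3 by -0.30 (adjusted p = 0.134). Without it Gadd45a and Sesn1 changed by -0.50 and -0.39 (adjusted p = 0.0595 for each). Without animal 501, 1 member was called at 400 ppm and Phlda3 changed by 0.50 (adjusted p = 0.408), and without animal 503, 2 were called, with Gadd45a at -0.50 (adjusted p = 0.0760). Without either, Bcl2l2 (adjusted p = 0.0514 and 0.0563) and the second Bcl2l11 probe (adjusted p = 0.0829 and 0.0967) were not called. At 250 ppm 1,2-DCB the heart of animal 501 likewise had 135236 CPM on the cardiac list and 85.6 CPM of Phlda3, and leaving it out gave 5 called members in place of 4. The share of all probes called in these refits is not reported here, so the counts are not set against a background.

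**Figure D3:**
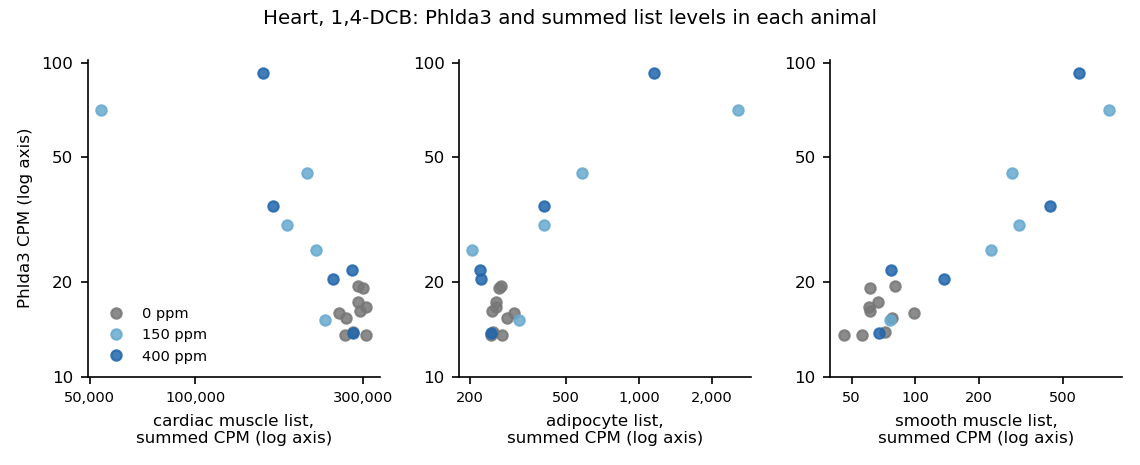
CPM of Phlda3 in each heart of the 1,4-DCB series (vertical axis) against the summed CPM of the cardiac muscle, adipocyte and smooth muscle lists (horizontal axes), for 0, 150 and 400 ppm. The 2 hearts with the highest Phlda3, at 70.7 and 92.8 CPM, have the lowest cardiac and the highest adipocyte and smooth muscle sums.

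In the ovary at 250 ppm 1,2-DCB, 6 of 41 member probes were called, 2 higher and 4 lower (14.6%, against 15.9% of all probes). Phlda3 had 46.2, 60.4 and 82.4 CPM in 10 controls and 54, 109.7 and 137.6 in 7 exposed ovaries (0.72 ± 0.17, adjusted p = 0.00234), and 5 of the 7 were above every 1,2-DCB control. Of those 5, animals 504 and 506R, at 109.7 and 84.1 CPM, lay within the range of the 1,4-DCB control ovaries, 53.2 to 117.9. The adipocyte sum of the 1,2-DCB ovaries, from the list chosen after the values were seen, had a median of 619.4 CPM in controls (132.7 to 2560) and 1604 exposed (349.2 to 2382). Among exposed ovaries it was lowest in animal 507, which also had the lowest Phlda3, and highest in animals 503, 505 and 501, which had the highest Phlda3. Control animals 4 and 7, with adipocyte sums of 2487 and 2560 CPM, had 69.4 and 71.5 CPM of Phlda3. The part of this list in the change of Phlda3 was not tested. Birc5 went from 188, 234 and 348 to 276, 360 and 427 CPM (0.51 ± 0.12, adjusted p = 0.00246), with overlap. In the same ovaries 8 of 22 proliferation probes rose and 0 fell (median 0.37), and their summed level was 1960 to 3752 CPM in controls and 2703 to 4146 exposed, lowest and highest in the same exposed animals, 508 and 507, as Birc5. The part of cell division was not tested here either. Trp53inp2 fell from a median of 42.4 to 19.2 CPM (-0.89 ± 0.19, adjusted p = 9.58e-04), Bad, a BCL2 antagonist regulated by phosphorylation, by 0.39 ± 0.10 on 1 probe (adjusted p = 0.00356), and Gadd45a by 0.73 ± 0.21 on 1 probe (adjusted p = 0.0129). Btg2 fell by 0.76 ± 0.22 (adjusted p = 0.0139), and without control animal 1, which had 292 CPM, its change was -0.42 (adjusted p = 0.125).
At 1, 10, 30 and 100 ppm 1,2-DCB 0 members were called by edgeR in ovary, against 0.0%, 0.0737%, 0.0% and 0.0737% of all probes, with 1, 9, 4 and 7 below an unadjusted p of 0.05 and 0, 0, 1 and 0 by DESeq2. With 1,4-DCB at 1, 10, 50, 150 and 400 ppm 0 members were called by edgeR, against 0.0%, 0.0%, 0.0%, 0.0369% and 0.479% of all probes, with 3, 0, 1, 0 and 4 below an unadjusted p of 0.05 and 0 by DESeq2. Phlda3 at 400 ppm had a median of 98.8 CPM against 70.7 in controls (0.41 ± 0.18, adjusted p = 0.502).

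**Figure D4:**
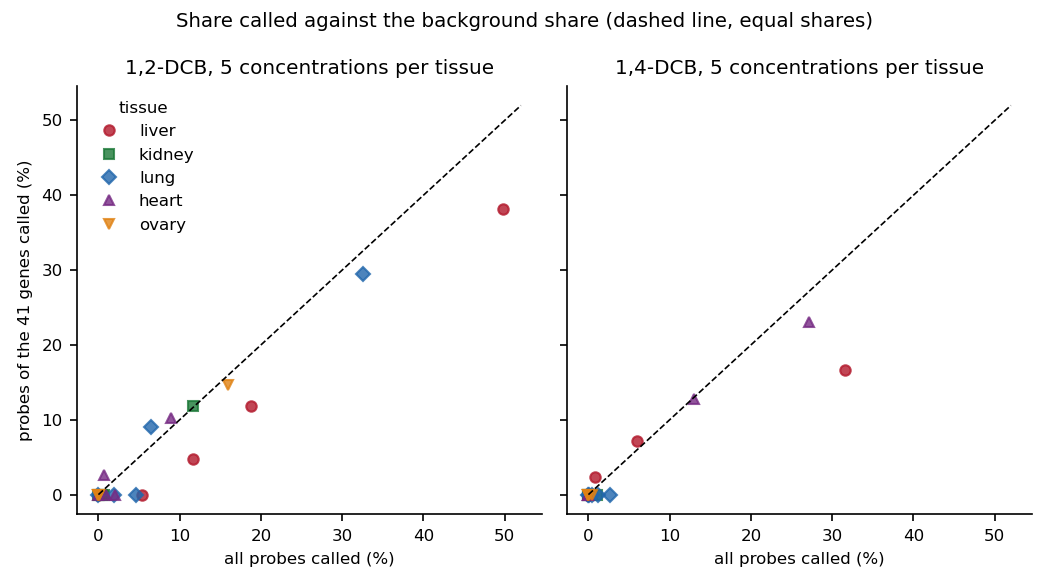
Percent of the tested member probes that were called (vertical axis) against the percent of all tested probes called (horizontal axis), 1 point per tissue, compound and concentration, with a dashed line where both are equal. The liver at 250 ppm lies at 38.1% against 49.8%, below the line.

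Whether the members' responses differed between tissues was tested as the difference of the 2 changes from control, other tissue minus liver, at the highest concentrations. For 1,2-DCB 9 members differed in kidney (31.8% of all probes called), 11 in lung (35.4%), 10 in heart (27.5%) and 15 in ovary (34.6%), and DESeq2 called 10, 13, 14 and 18. For 1,4-DCB 6 differed in kidney (19%, and 3 members with the animal as a block), 6 in lung (29.5%), 10 in heart (29.5%) and 7 in ovary (20.7%). The median difference over all probes was 0.19 in lung for 1,2-DCB, and 0.15 in kidney and 0.22 in lung for 1,4-DCB, and within 0.1 in the other contrasts.
Birc5 and Phlda3 differed from liver in all 8 contrasts, always with the larger change in liver. For Birc5 and 1,2-DCB the differences were -4.89 ± 0.45 for kidney, -3.01 ± 0.44 for lung, -5.30 ± 0.40 for heart and -4.48 ± 0.30 for ovary, and for 1,4-DCB they were -3.25, -2.93, -3.17 and -3.28 in the same order. For Phlda3 they were -3.52 ± 0.39, -2.77 ± 0.25, -2.85 ± 0.47 and -2.50 ± 0.27 with 1,2-DCB, and -3.34, -2.75, -1.58 and -2.32 with 1,4-DCB.
The fall of Gadd45g in liver at 400 ppm 1,4-DCB was not shared, with differences of 1.65 in kidney, 1.95 in lung, 1.98 in ovary and 1.86 in heart. Gadd45a differed in heart by -1.71 ± 0.33 for 1,2-DCB and -1.26 ± 0.32 for 1,4-DCB. Mdm2 (-1.01 ± 0.32, adjusted p = 0.0146) and Bax (-0.86 ± 0.25, adjusted p = 0.00951) differed between kidney and liver for 1,2-DCB. Trp53inp2 differed by 1.27 in kidney, 1.18 in lung and 1.02 in heart for that compound.

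**Figure D5:**
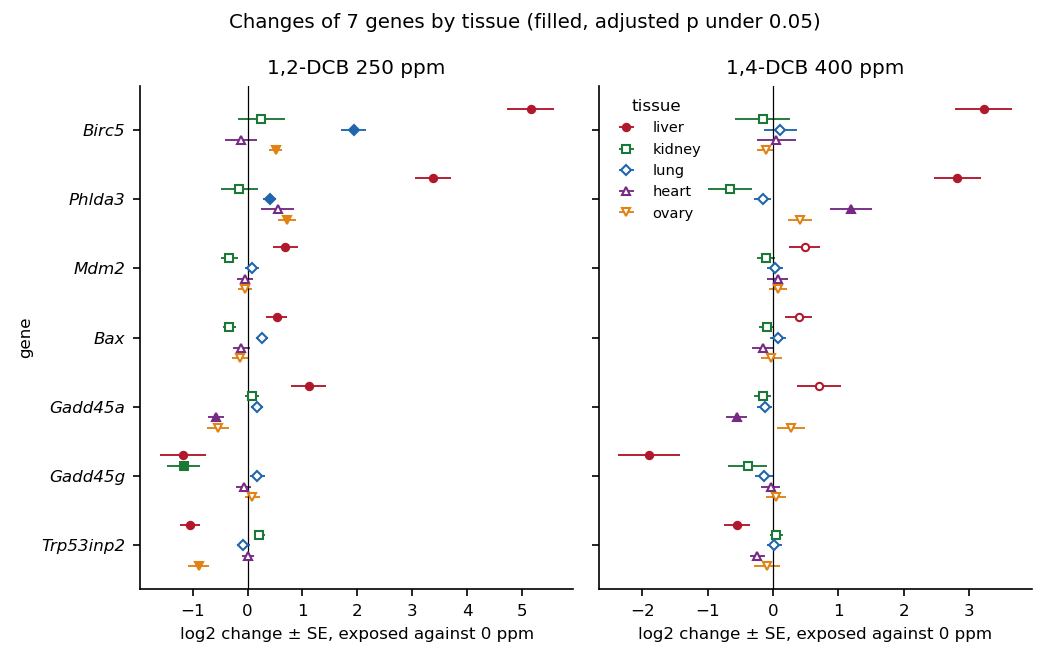
Log2 change (points, with SE as bars) of 7 members at 250 ppm 1,2-DCB and 400 ppm 1,4-DCB in each tissue, against the 0 ppm animals of the same compound, with filled points where called. Birc5 and Phlda3 have their largest changes in liver, and Gadd45a lies above 0 in liver and below 0 in heart.

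The isomers were compared at 1 and 10 ppm, the concentrations they share, as the difference of the 2 changes from control, in 5 tissues or 10 comparisons, with p adjusted over all probes of each. In each of the 10, 0 members were called by edgeR and by DESeq2. Of all probes, at 1 and 10 ppm, 0.0% and 1.58% were called in liver, 0.0% and 0.22% in kidney, 0.0% and 0.363% in lung, 0.0% and 1.14% in heart, and 0.0% and 0.0% in ovary. In liver at 10 ppm the difference, 1,2-DCB minus 1,4-DCB, was -1.13 for Phlda3 (95% interval -2.26 to 0.00, adjusted p = 0.382), -0.80 for Birc5 (-2.10 to 0.50) and 0.16 for Gadd45g (-1.13 to 1.45). In heart at 10 ppm Birc5 differed by -1.49 (-2.36 to -0.62, adjusted p = 0.0854). At 1 ppm in liver the intervals were -1.96 to 0.61 for Phlda3 and -1.84 to 1.22 for Birc5. These intervals are wide and do not show that the isomers act alike. Above 10 ppm the concentrations differ, and the values given for 30, 100 and 250 ppm of 1,2-DCB and 50, 150 and 400 ppm of 1,4-DCB stand side by side without comparison.

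Pathway genes outside the name rule were taken from lists. Of 18 probes for p53 targets outside it, in liver 4 were higher and 3 lower with 250 ppm 1,2-DCB, and 5 higher and 2 lower with 400 ppm 1,4-DCB. Over all probes 25.1% were higher and 24.6% lower in the first contrast and 18% and 13.6% in the second, so these counts lay near the background. Ccng1, a p53 target, rose from 110.3, 122.2 and 147.8 to 191.4, 241.5 and 249.7 CPM at 250 ppm (0.88 ± 0.08, adjusted p = 3.99e-13) and by 0.55 ± 0.09 at 400 ppm (adjusted p = 4.68e-06). Cdkn1a, the p21 arrest gene and a standard p53 target, took another course in liver: 9.55, 26.3 and 39.6 CPM in controls against 0.859, 1.45 and 2.81 at 30 ppm 1,2-DCB (-3.93 ± 0.46, adjusted p = 2.03e-08), a median of 10.1 at 100 ppm (-1.26 ± 0.38, adjusted p = 0.0121) and 26.5 at 250 ppm (0.47 ± 0.33, adjusted p = 0.243). At 100 ppm it fell in the same livers in which Phlda3 rose. Falls of Cdkn1a were also called outside liver. At 250 ppm 1,2-DCB it changed by -1.29 ± 0.28 in kidney, -0.85 ± 0.23 in heart and -1.51 ± 0.34 in ovary. In lung it changed by -1.08 ± 0.19 at 100 ppm 1,2-DCB and -1.02 ± 0.19 at 400 ppm 1,4-DCB.
Of the 16 death receptor and NF-kB probes outside the rule, 7 fell and 0 rose in liver at 250 ppm 1,2-DCB, against 24.6% of all probes lower and 25.1% higher. Nfkbia changed by -0.92 ± 0.10 (adjusted p = 2.56e-11), and the median change of the list was -0.38 against -0.02 over all probes. In lung at 250 ppm 7 fell and 2 rose, against 15% of all probes lower and 17.6% higher. Of the 10 mitochondrial death probes, in liver at 250 ppm 3 were higher and 3 lower, near the shares over all probes, with Mcl1, an anti-apoptotic BCL2 protein outside the name rule, at 0.53 ± 0.13 (adjusted p = 2.93e-04).

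Dbp, a clock-controlled transcription factor whose RNA cycles through the day, was also higher in exposed animals at the highest 1,2-DCB concentration. It rose in liver by 1.70 ± 0.72 (adjusted p = 0.0434), in kidney by 2.12 ± 0.45 (adjusted p = 8.32e-04), in lung by 1.98 ± 0.40 (adjusted p = 7.75e-05), in heart by 2.17 ± 0.32 (adjusted p = 9.73e-07) and in ovary by 1.22 ± 0.20 (adjusted p = 3.82e-05). The liver call was lost without animal 507 or 508 (1.53 and 1.17, adjusted p = 0.0881 and 0.197) and without any of control animals 1, 2, 3, 5, 6, 7 and 10. The time of day of sampling is not given in the sources used here. With the Dbp level as a covariate, the second probes of Gadd45a and Fas in liver at 250 ppm changed by 0.68 (adjusted p = 0.103) and -0.13 (adjusted p = 0.188), and Cdkn1a rose by 1.05 (adjusted p = 0.00144). In the same fit Gadd45g and Btg2 in kidney changed by -0.28 (adjusted p = 0.704) and -0.16 (adjusted p = 0.652), and Bag3 by -0.32 (adjusted p = 0.0980). In lung both Fas probes (-0.20 and -0.23), Btg2 (-0.29), Birc3 (-0.17) and Phlda3 (0.29) were no longer called, and in heart Fas (-0.36) and Bcl2l11 (-0.32) at 250 ppm 1,2-DCB. In ovary Trp53inp2 (-0.55, adjusted p = 0.132), Bad (-0.36, adjusted p = 0.0659) and Btg2 (-0.27, adjusted p = 0.621) were lost as well. Dbp itself differed between exposed and control animals, so this fit cannot separate a part of Dbp from that of exposure. The part of Dbp in those results was not tested.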

How the data were processed

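RNA of 5 tissues was measured with TempO-Seq, 1 library per tissue and animal. The authors deposited read counts, 1 row per probe and 1 column per library, adjusted for probe attenuation, as the table's name says, and not scaled between libraries. The submitters' processing notes name Bowtie 1.3.1. Its probe manifest and genome build are not given in the sources used here. Libraries were grouped by tissue, compound and concentration as labelled. The 34 libraries that the labels mark as not used (21 kidney, 11 liver, 2 lung) stayed out of the main comparisons. Of 824 library pairs of the same group, 0 held identical values. Each animal number names 1 animal, and the labels do not say how the animals were housed, so p-values measure the spread between these animals.

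The members, gene lists and tests were chosen with earlier results of these data known. The main test was edgeR's (4.0.16, in R 4.3.3) quasi-likelihood test, after TMM scaling and a filterByExpr filter on all 12 groups of a tissue together, two-sided, with Benjamini-Hochberg adjustment over all probes, and called at 0.05. CPM are TMM-scaled, and a standard error is the size of the log2 change divided by the root of F. Alternatives were DESeq2 1.42.0, RLE scaling, no low-count filter, all libraries, 1 compound at a time, undoing of whole-number count factors, the Dbp level as a covariate, leaving out each animal, and blocks for animal. No such factor was seen for the members. The edgeR and DESeq2 steps were tested on simulated data. Named were all called members at the highest concentrations, up to 6 called members elsewhere, and a fixed core set, except for some members that are counted but not reported here by name. Coordinates and gene overlaps are from GENCODE M21 by symbol, matched for 41 of 41 genes, and promoters from RefSeq. Where a gene has a pair of probes, each is counted. Tables were read with pandas 2.3.3.

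Tissues of 1 animal are paired by design. Deviations from group means correlated weakly between liver and another tissue of the same animal, with median r from 0.05 to 0.241. The same animal number in both series names different animals and does not pair them. Reads carry no molecular identifiers, so a limit set by counting covers counting error alone.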

Additional observations from a re-analysis of the deposited data

Results flagged for a closer look

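Single animals were looked for in some combinations of gene and group, where chance alone flags about 1 in 20 if values are normally distributed. They stood apart from the rest of their group in 11 of the combinations tested (8.33%). In liver these were Gadd45g in 1,2-DCB control animal 6 at 41.1 CPM (others 8.83 to 22.8), Birc5 in control animal 5 at 11 (3.23 to 5.54), and at 250 ppm Bid in animal 503 at 14.5 (18.6 to 20.2) and Gadd45g in animal 506R at 20.2 (4.20 to 7.46). With 1,4-DCB they were Birc5 at 50 ppm in animal 303 at 62.9 (4.51 to 21.2) and Gadd45g at 150 ppm in animal 405 at 11.3 (3.36 to 4.43). In lung, 1,2-DCB control animal 7 had Bcl2l11 at 8.97 CPM (11.2 to 13.2), and control animal 2 had Btg2 at 948 (314 to 525). In heart, animal 405 at 150 ppm 1,4-DCB had Bag3 at 876 CPM (1803 to 2011) and animal 501 at 400 ppm had Phlda3 at 92.8 (13.8 to 34.9). In ovary, 1,2-DCB control animal 1 had Btg2 at 292 CPM (61.8 to 114.3).

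Changes from control differed between another tissue and liver, by a test of the difference itself. For 1,2-DCB at 250 ppm the log2 differences, other tissue minus liver, were in kidney -4.89 for Birc5, -3.52 for Phlda3, 1.27 for Trp53inp2 and -1.17 for Tnfrsf21. In lung they were -2.77 for Phlda3, -3.01 for Birc5, 1.18 for Trp53inp2 and 0.47 for Bcl2l13. In heart they were -5.30 for Birc5, -2.85 for Phlda3, -1.71 for Gadd45a and 1.02 for Trp53inp2, and in ovary -4.48 for Birc5, -2.50 for Phlda3, 0.79 for Bid and 0.53 for Bag3. For 1,4-DCB at 400 ppm they were in kidney -3.34 for Phlda3, -3.25 for Birc5, 1.65 for Gadd45g and 0.73 for Trp53inp2, and in lung -2.75 for Phlda3, -2.93 for Birc5, 1.95 for Gadd45g and 0.76 for Trp53inp2. In heart they were -3.17 for Birc5, 1.86 for Gadd45g, -1.26 for Gadd45a and 0.37 for Trp53, and in ovary -3.28 for Birc5, 1.98 for Gadd45g and -2.32 for Phlda3. With the animal as a block, Tnfrsf21 and, for 1,4-DCB, Trp53inp2 in kidney and Trp53 in heart were no longer called (adjusted p = 0.0933, 0.0832 and 0.0542).

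Among libraries not used in the comparisons, the liver of animal 504 at 250 ppm 1,2-DCB had Birc5 at 37.9 CPM, from 5 counts of 132046 in the library, while the control livers reached 11 CPM.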

How the results depend on the processing

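RLE scaling left all 186 log2 changes on the same side of the threshold, and DESeq2 left 183. With all libraries the called members were 9 in place of 16 in liver at 250 ppm 1,2-DCB, 4 in place of 7 at 400 ppm 1,4-DCB, 8 in place of 5 in kidney at 250 ppm, 4 in place of 0 in kidney and 11 in place of 4 in lung at lower 1,2-DCB concentrations, 1 in place of 0 for the isomers in liver at 1 ppm, and 4 in place of 7 for ovary minus liver with 1,4-DCB. DESeq2 gave 10 in place of 6 in liver, 2 in place of 1 in heart and 1 in place of 0 in ovary at lower 1,2-DCB concentrations. With 1 compound at a time there was 1 in place of 3 in liver at lower 1,4-DCB concentrations, 2 in place of 4 in lung and 0 in place of 1 in heart at lower 1,2-DCB concentrations, and 1 in place of 0 in lung at lower 1,4-DCB concentrations. With the Dbp covariate there were 3 in place of 5 in kidney at 250 ppm, 9 in place of 5 in heart and 1 in place of 0 in lung at 400 ppm, and 0 in place of 1 in heart at lower 1,2-DCB concentrations. Under that covariate the change of Cdkn1a, outside the name rule, in heart at 250 ppm was 0.13 in place of -0.85, a change of sign. The cause of these differences was not tested. For these settings, and for the fits without single animals, the share of all probes called is not reported here. The counts therefore do not show whether members or all probes lost or gained calls.

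Of the log2 changes, 2310 stayed on the same side of the threshold when an animal was left out, 21 gained a call and the rest lost one. Leaving out each animal gave 3 to 6 members in kidney at 250 ppm, 1 to 6 in heart and 0 to 1 in lung (1 without animal 505) at 400 ppm. At lower concentrations of 1,4-DCB it gave 1 to 3 in liver (1 without animal 404), 0 to 1 in kidney (1 without control animal 2) and 2 to 10 in heart. Of 1,2-DCB it gave 2 to 7 in lung (2 without animal 404 or 405 or control animal 3 or 5, and 7 without animal 105), 0 to 2 in heart (2 without control animal 1 or animal 302) and 0 to 1 in ovary (1 without control animal 10). For the isomers in heart at 10 ppm it gave 0 to 1, with 1 without 1,2-DCB control animal 1, 1,4-DCB control animal 2 or animal 201. With the animal number as a replicate block the isomer counts stayed at 0 in all 10 comparisons. That number does not pair animals of the series, so this block is no check of those counts. With the animal as a replicate block, kidney minus liver for 1,4-DCB gave 3 members in place of 6, and Tnfrsf21 in kidney for 1,2-DCB (-0.84, adjusted p = 0.0933), Trp53inp2 in kidney (0.70, adjusted p = 0.0832) and Trp53 in heart for 1,4-DCB (0.33, adjusted p = 0.0542) were no longer called. Low levels limit what can be seen of Bak1, Tnfrsf21 and Phlda3 in control livers, where they lie near 1 CPM or below.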
